A study of Homo sapiens with 9 samples.

Results

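The growth factor and cytokine receptors of myeloid progenitors were followed in MOLM-13, a human acute myeloid leukaemia line in which FLT3 carries an activating mutation. The set was every row of the gene table whose symbol was FLT3, KIT, CSF1R, CSF2RA, CSF2RB, CSF3R, IL3RA, IL6R, IFNGR1 or TNFRSF1B, which made 10 genes of 56541. They filled 12 rows, since CSF2RA and IL3RA were listed under 2 identifiers each. Of the 10 genes, 7 had counts and passed the filter on low values in both comparisons, and 3 were listed at 0 in all 9 libraries.

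The 9 libraries of total RNA fell into 3 groups of 3 replicates. RNA-seq made up the shCONTROL and shBCLAF1 groups, from MOLM-13 cells that carried either a control hairpin or one that depletes BCLAF1, which binds RNA in the nucleus. The RIP group (RNA immunoprecipitation) was the RNA that came down with BCLAF1 from shCONTROL cells, with more cells as input than RNA-seq had. All cells, controls included, had 4 days of doxycycline at 200 ng/µL. The labels name a single hairpin genotype per arm and no clone, and no mock precipitation was analysed here. Nothing in them says that replicates were separate cultures, so p-values measure only the spread between these samples, which may be technical.

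FLT3, KIT and CSF1R are receptor tyrosine kinases of one structural family, which dimerise on binding their ligands and signal through RAS, PI3K and STAT5. CSF3R, CSF2RB with its partner chains CSF2RA and IL3RA, and IL6R lack a kinase of their own. The receptor complexes that they form part of signal through bound Janus kinases. IFNGR1 is the ligand-binding chain of the interferon gamma receptor, and TNFRSF1B is the second receptor for tumour necrosis factor. In myeloid progenitors these receptors govern survival, proliferation and the choice between granulocytes and monocytes.

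Totals ran from 25819144 to 36635268 estimated counts per library, and 3 counts, taken as a floor, came to 0.0819 to 0.116 CPM of those totals. CPM is the count scaled to a common library size, with TMM factors in all levels given from here on. BCLAF1 itself measured 325, 328 and 312 CPM in shCONTROL replicates 1, 2 and 3 and 115, 125 and 99.9 in shBCLAF1, so the hairpin groups matched their labels. RIP libraries differed more among themselves than RNA-seq libraries did, with a chi-square per degree of freedom between replicates of 82.1 to 162 against 17.5 to 32.6. Mitochondrially encoded RNA made up 0.226% to 0.377% of RIP counts and 2.68% to 3.62% of RNA-seq counts. All 8 markers of the myelomonocytic line had counts. Of the T-cell, B-cell, megakaryocyte, epithelial and fibroblast markers, 4 of 6, 2 of 4, 2 of 3, 3 of 5 and 4 of 4 were at 0 in every library. The T-cell markers with counts were TRAC and CD3D. TRAC measured 24.0, 27.7 and 25.2 CPM in shCONTROL and 14.8, 12.7 and 11.4 in shBCLAF1. CD3D measured 11.0, 11.5 and 11.9 CPM in shCONTROL and 10.9, 9.41 and 7.80 in shBCLAF1. Summed B-cell and epithelial markers reached at most 3.32 and 3.62 CPM in any library. Erythroid markers were at 0 in all RNA-seq libraries.

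The receptors listed at 0 could not be compared. KIT (ENSG00000157404; chr4:54657957-54740715), the receptor for stem cell factor, had 0 counts in each of the 9 libraries. A listed 0 can be a failed estimate, so it sets no upper level for KIT. CSF2RA (chrX:1268814-1325218), the GM-CSF binding chain, and IL3RA (chrX:1336785-1382689), the interleukin-3 binding chain, were at 0 under both of their identifiers. These 2 genes lie in the end of the X chromosome that is shared with Y, where 15 protein-coding genes had 2 rows each. All 30 of those rows were at 0, including SLC25A6 and CD99, genes that most cells use, whereas 346 of the other 801 X-linked genes had counts. The 0 of CSF2RA and IL3RA was shared by all 15 protein-coding genes of that end in the table, and it gives no level for either receptor.

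Receptor levels were first compared between the 2 hairpin groups, to see what BCLAF1 depletion changes. Among the 7 receptors with counts, 3 rose (IFNGR1, TNFRSF1B and CSF2RB) and 1 fell (FLT3) at an adjusted p under 0.05, all by less than 1.5-fold. Of the 16961 genes tested, 15.5% rose and 16.9% fell by the same rule. The receptors' median size of change was 0.27 on the log2 scale, as it was over all genes tested (0.27). Groups did not overlap for 4 receptors that were higher and 2 that were lower, against 24.2% and 25.1% of all genes tested.

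FLT3 (ENSG00000122025; chr13:28003274-28100576) is the receptor for FLT3 ligand and the kinase mutated in this line. It measured 315, 341 and 322 CPM in shCONTROL replicates 1, 2 and 3. In shBCLAF1 it measured 296, 285 and 277 CPM. Every knock-down library lay below every control library, and replicates within a group differed by little, with SDs of 13.5 and 9.75 CPM (n = 3 each). The knock-down level was 87.7% of the control, a log2 fold change of -0.18 (SE 0.05, 95% interval -0.30 to -0.07, adjusted p 0.0265). This call lay near the threshold: leaving out shCONTROL replicate 2 or 3 or shBCLAF1 replicate 2 or 3 raised the adjusted p to 0.0508, 0.0579, 0.0788 and 0.0580, and total counts in place of TMM gave 0.0553. Gene counts do not separate the mutant from the normal FLT3 allele.

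CSF1R (ENSG00000182578; chr5:150053295-150113365), the macrophage growth factor receptor, measured 54.4, 57.1 and 52.3 CPM in shCONTROL. In shBCLAF1 it measured 47.4, 27.2 and 42.9 CPM. The groups did not overlap, but knock-down replicate 2 lay far below the other two. The log2 fold change of -0.47 (SE 0.20, 95% interval -0.96 to 0.01, adjusted p 0.122) did not pass, and it was -0.27 without shBCLAF1 replicate 2. The pseudogene RPL7P1 lies within CSF1R and held 4459 to 5159 counts in the shBCLAF1 libraries, with 4758 in replicate 2. Its part in the CSF1R values was not tested.

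CSF3R (ENSG00000119535; chr1:36466043-36483314), the granulocyte colony-stimulating factor receptor, measured 227, 256 and 243 CPM in shCONTROL and 233, 235 and 236 in shBCLAF1. The knock-down libraries all lay inside the range of the controls. Its log2 fold change was -0.04 (95% interval -0.17 to 0.08, adjusted p 0.600), and its sign turned under total counts in place of TMM and without shCONTROL replicate 2 (0.01 in both).

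CSF2RB (ENSG00000100368; chr22:36913628-36940439), the signalling chain that the GM-CSF, interleukin-3 and interleukin-5 receptors share, measured 23.2, 22.2 and 21.9 CPM in shCONTROL and 28.2, 25.7 and 26.9 in shBCLAF1. All knock-down libraries were higher than all controls. The level was 120.0% of the control, a log2 fold change of 0.27 (SE 0.06, 95% interval 0.12 to 0.41, adjusted p 0.0192). The call was lost without shCONTROL replicate 3 (adjusted p 0.0639) and without shBCLAF1 replicate 1 (0.0514). IL6R (ENSG00000160712; chr1:154405343-154469450), the interleukin-6 binding chain, measured 276, 254 and 274 CPM in shCONTROL and 284, 282 and 293 in shBCLAF1. Its groups were separated by a narrow gap, and the log2 fold change of 0.10 (95% interval -0.00481 to 0.20, adjusted p 0.133) did not pass.

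IFNGR1 (ENSG00000027697; chr6:137197484-137219385) showed the highest fold change of the 7 receptors. It measured 69.6, 64.7 and 64.1 CPM in shCONTROL and 103, 99.8 and 92.6 in shBCLAF1. The lowest knock-down library was well above the highest control. The level was 149% of the control, with a log2 fold change of 0.58 (SE 0.06, 95% interval 0.44 to 0.72, adjusted p 0.000968), and 10.1% of the genes tested had a higher one. It kept an adjusted p under 0.05 in all 13 alternative fits.

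TNFRSF1B (ENSG00000028137; chr1:12166991-12209220) measured 120.5, 114 and 115 CPM in shCONTROL and 144, 144 and 147 in shBCLAF1. Its replicates lay close together, and the groups were parted by a wide gap for their spread. The level was 125% of the control, with a log2 fold change of 0.32 (SE 0.04, 95% interval 0.23 to 0.41, adjusted p 0.00142). When all 9 libraries were fitted together, which lends the larger spread of the RIP to the RNA-seq groups, IFNGR1 alone of the 4 kept its call (adjusted p 0.0247, against 0.484 for TNFRSF1B, 0.256 for CSF2RB and 0.329 for FLT3).

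**Figure D1:**
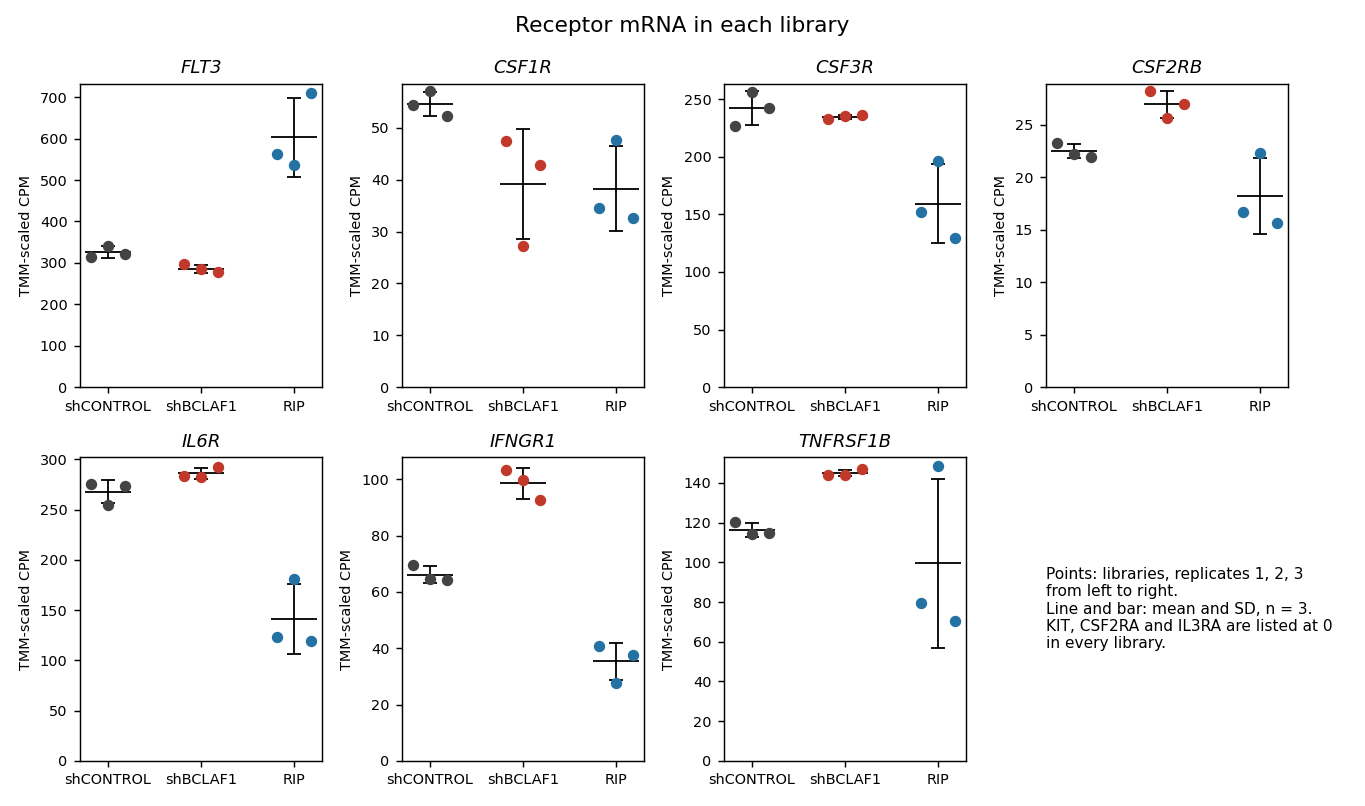
TMM-scaled CPM (vertical axes, from 0) of the 7 receptors with counts in the 3 groups. Points are libraries, and lines with bars are mean and SD (n = 3). FLT3 is the receptor whose RIP libraries, at 535 to 711 CPM, all lie above its RNA-seq libraries.

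Myeloid maturation markers mostly rose after knock-down, whereas the receptors changed in both directions. Of the 14 such markers tested, 9 rose and 1 fell after knock-down, with a median log2 fold change of 1.92 against 0.02 over all genes tested, and 5 of the 20 listed (CD14, CD163, FCN1, LTF and S100A12) were at 0. Their summed level was 194 to 229 CPM in shCONTROL and 426 to 458 in shBCLAF1. Among those with the smallest adjusted p were S100A9, a calcium-binding alarmin (log2 fold change 3.61), and SLPI, a protease inhibitor (2.98). ITGAX, an integrin chain, fell (-0.41), a call that ended when shBCLAF1 replicate 1, 2 or 3 was left out (adjusted p 0.0713, 0.0604 and 0.0629) or all 9 libraries were fitted together (0.0662). In the RIP 4 of the 14 were higher, MNDA (1.39) among them, and 4 lower, including SLPI (-2.92) and CYBB (-1.22). The 4 lower became 2 without shCONTROL replicate 1, 2 or 3, and 7 with shCONTROL and shBCLAF1 averaged as the reference. The markers' part in the receptor changes was not tested, and in bulk RNA a shift in the kinds of cells and a change of RNA per cell cannot be told apart.

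The sequences before the start sites of IFNGR1 and TNFRSF1B, which rose, are set beside that of FLT3, which fell. Each is the 250 bases before the gene's first RefSeq start (GRCh38.p14), 5′ to 3′ on the gene's strand. They lie at chr6:137219386-137219635 (minus strand), chr1:12166741-12166990 (plus strand) and chr13:28100577-28100826 (minus strand). Capitals mark matches on either strand to the cores GAGGAAGT (PU.1), TTNNGCAA (C/EBP), TGTGGT (RUNX) and TTCNNNGAA (the interferon-activated site of STAT proteins).
IFNGR1: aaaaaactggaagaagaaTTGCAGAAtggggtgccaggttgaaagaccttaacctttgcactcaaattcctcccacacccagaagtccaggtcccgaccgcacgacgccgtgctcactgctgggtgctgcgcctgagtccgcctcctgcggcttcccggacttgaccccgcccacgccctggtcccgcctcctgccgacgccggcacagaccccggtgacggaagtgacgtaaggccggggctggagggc
TNFRSF1B: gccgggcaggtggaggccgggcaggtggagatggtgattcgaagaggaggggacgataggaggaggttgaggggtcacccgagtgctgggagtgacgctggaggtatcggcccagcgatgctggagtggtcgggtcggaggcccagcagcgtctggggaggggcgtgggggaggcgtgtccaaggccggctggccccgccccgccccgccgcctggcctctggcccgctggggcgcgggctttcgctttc
FLT3: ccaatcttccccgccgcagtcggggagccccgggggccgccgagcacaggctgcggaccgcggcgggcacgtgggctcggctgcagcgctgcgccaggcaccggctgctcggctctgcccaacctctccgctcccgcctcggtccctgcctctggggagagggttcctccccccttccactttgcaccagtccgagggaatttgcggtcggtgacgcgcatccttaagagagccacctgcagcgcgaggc
IFNGR1 held 1 match, TTGCAGAA to the C/EBP core on the opposite strand, beginning 232 bases before the start. The window of another IFNGR1 start (chr6:137219197-137219446) held 0 matches. The same TTGCAGAA began 206 bases before a start of CSF3R, which was not called after knock-down, and 240 bases before that of IL3RA. For CSF2RB, which also rose, no promoter sequence was at hand. TNFRSF1B and FLT3 held none of these letters, and no matches overlapped. Among 35116 promoters of this length, 9.05% held the C/EBP core, 2.17% the PU.1 core, 11.0% the RUNX core and 6.57% the STAT core, so a single match is common and marks no site. The windows were rich in G and C, at 63.6%, 72.4% and 72.0% of bases in IFNGR1, TNFRSF1B and FLT3.

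The RIP was then compared with shCONTROL RNA-seq, to see which receptor transcripts came down with BCLAF1 more or less than their abundance would give. Both comparisons share the shCONTROL libraries, so their results are not independent of each other. FLT3 was higher in the RIP than in shCONTROL RNA-seq, and CSF1R, CSF3R, IL6R and IFNGR1 were lower, at an adjusted p under 0.05. Over the 16727 genes tested, 24.6% were higher and 24.7% lower. With a minimum log2 fold change of 1 in addition, 0 receptors were enriched and 0 depleted by edgeR, against 11.0% and 13.5% of all genes. DESeq2 also gave 0 and 0, and of the 5 receptors with an unadjusted p under 0.05, 0 reached that minimum. Groups did not overlap for 1 receptor that was higher and 4 that were lower, against 31.8% and 35.2% of all genes tested. Because the reference was total RNA, recovery by binding cannot be told apart from background of the precipitation.

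FLT3 measured 563, 535 and 711 CPM in RIP replicates 1, 2 and 3, against 315 to 341 in shCONTROL. All RIP libraries exceeded all controls, and replicate 3 stood highest. The mean of 603 ± 94.5 CPM (SD, n = 3) was 185% of the control, with a log2 fold change of 0.88 (SE 0.13, 95% interval 0.56 to 1.20, adjusted p 0.00250), and 17.3% of genes tested were higher. BCLAF1 mRNA, for comparison, had a log2 fold change of 1.74. FLT3 kept an adjusted p under 0.05 in all 14 alternative fits, with log2 fold changes from 0.75 to 0.98. The pseudogene KATNBL1P1, which lies within FLT3, held at most 112 counts in any library.

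CSF1R measured 34.6, 47.7 and 32.6 CPM in the RIP, all below the 52.3 to 57.1 of the controls. Its log2 fold change was -0.51 (SE 0.16, 95% interval -0.92 to -0.11, adjusted p 0.0420). Leaving out any of shCONTROL replicates 1, 2 and 3 ended the call (adjusted p 0.110, 0.118 and 0.0926), as did leaving out RIP replicate 1 or 3 (0.103 and 0.0934). RPL7P1, the pseudogene within CSF1R, held 6539, 5962 and 10079 counts in the RIP.

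CSF3R measured 152, 197 and 129 CPM in the RIP, against 227 to 256 in shCONTROL. All of its RIP libraries lay below the controls, with a log2 fold change of -0.61 (SE 0.17, 95% interval -1.02 to -0.19, adjusted p 0.0270). Leaving out shCONTROL replicate 1, 2 or 3, or RIP replicate 1, ended that call (adjusted p 0.0634, 0.0874, 0.0802 and 0.0702). IL6R measured 123, 181 and 120 CPM (119.6 in replicate 3), against 254 to 276 in shCONTROL. It was at 52.7% of the control, a log2 fold change of -0.93 (SE 0.19, 95% interval -1.38 to -0.48, adjusted p 0.00764). IL6R kept an adjusted p under 0.05 in all 14 alternative fits. CSF2RB measured 16.6, 22.3 and 15.6 CPM, and its replicate 2 overlapped the controls at 21.9 to 23.2. Its log2 fold change of -0.31 (95% interval -0.70 to 0.09, adjusted p 0.163) did not pass.

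IFNGR1 measured 40.7, 27.8 and 37.4 CPM in the RIP, against 64.1 to 69.6 in shCONTROL. Its RIP level was 53.4% of the control, a log2 fold change of -0.91 (SE 0.15, 95% interval -1.28 to -0.55, adjusted p 0.00358), with an adjusted p under 0.05 in all 14 alternatives. TNFRSF1B measured 79.7, 148 and 70.3 CPM in the RIP. Replicate 2 lay above all controls (114 to 120.5) and the other two below them. The log2 fold change of -0.23 (SE 0.29, 95% interval -0.94 to 0.48, adjusted p 0.541) did not pass.

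RIP replicate 2 held an extreme of the RIP values for each of these genes. For FLT3, however, it lay near replicate 1 (535 and 563 CPM), and replicate 3 was the one apart (711). It held the highest of the RIP values for CSF1R, CSF2RB, CSF3R, IL6R and TNFRSF1B, at 1.38 to 1.98 times the mean of replicates 1 and 3, and the lowest for FLT3 and IFNGR1, at 0.841 and 0.711 times that mean. Without it, the log2 fold change was 0.95 for FLT3, -0.71 for CSF1R, -0.80 for CSF3R, -1.16 for IL6R and -0.77 for IFNGR1. CSF2RB (-0.49, adjusted p 0.00965) and TNFRSF1B (-0.65, adjusted p 0.00335) then passed as well, so that 6 receptors were lower and FLT3 was higher. A count of receptors lower in the RIP thus depended on that library, but not on it alone. The calls of CSF1R and CSF3R also ended without shCONTROL replicate 1, 2 or 3 and without RIP replicate 1. FLT3 was the one receptor above its controls with or without RIP replicate 2.

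**Figure D2:**
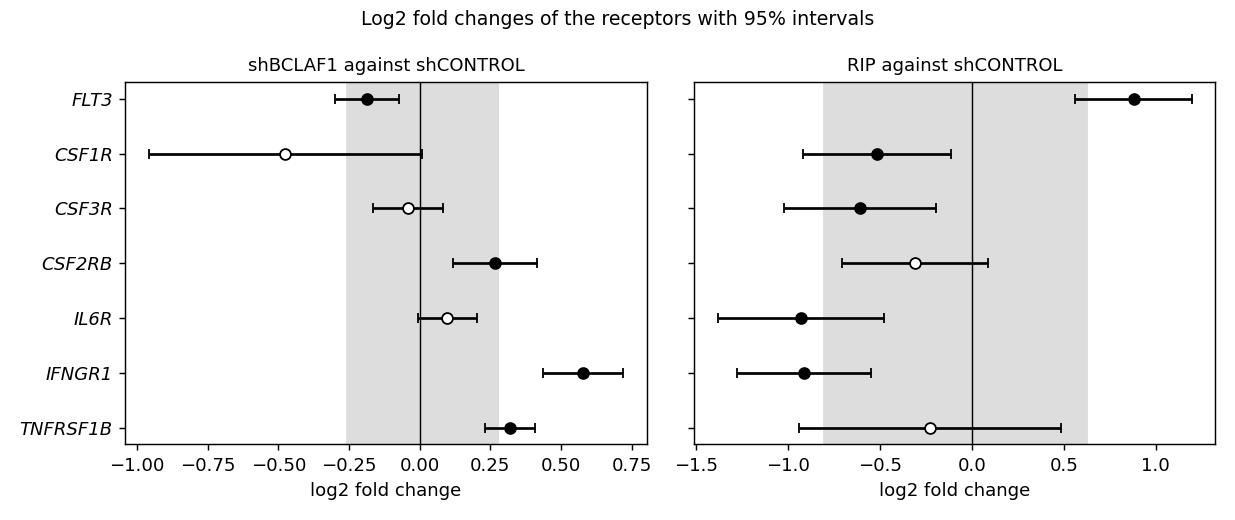
Log2 fold changes (horizontal axes) of the 7 receptors with 95% intervals, after knock-down (left) and in the RIP (right). Filled points passed an adjusted p of 0.05, and grey bands span the middle 50% of all genes tested. On the left IFNGR1 (0.58) and TNFRSF1B (0.32) lie above the band and CSF1R (-0.47) below it, and on the right FLT3 (0.88) lies above it and IL6R (-0.93) and IFNGR1 (-0.91) below it.

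Dividing the counts of FLT3 by those of another receptor within each library removes the scaling between libraries. Against all 6 other receptors with counts, the log2 ratio was higher in every RIP library than in every shCONTROL library. The mean rise was smallest against TNFRSF1B, at 1.18 (2.27-fold), with RIP libraries at 2.82, 1.85 and 3.34 and controls at 1.39, 1.58 and 1.49. It was greatest against IL6R, at 1.83 (3.55-fold), with RIP libraries at 2.19, 1.56 and 2.57 and controls at 0.19, 0.42 and 0.24. In shBCLAF1 the ratio was lower in every library against CSF2RB, CSF3R, IL6R, IFNGR1 and TNFRSF1B, by 0.15 (CSF3R) to 0.76 (IFNGR1) on the log2 scale, and higher against CSF1R. Each of the 12 comparisons had a two-sided exact permutation p of 0.1, the smallest that 3 libraries against 3 can give, and 0.1 after Benjamini-Hochberg adjustment over the 6 ratios of each contrast. All 6 ratios share the FLT3 counts, so these comparisons are not independent of each other. Where FLT3 and the other receptor left the control range in opposite directions, the outcome followed from the levels above. This held in the RIP for CSF1R, CSF3R, IL6R and IFNGR1, and in shBCLAF1 for CSF2RB, IL6R, IFNGR1 and TNFRSF1B.

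**Figure D3:**
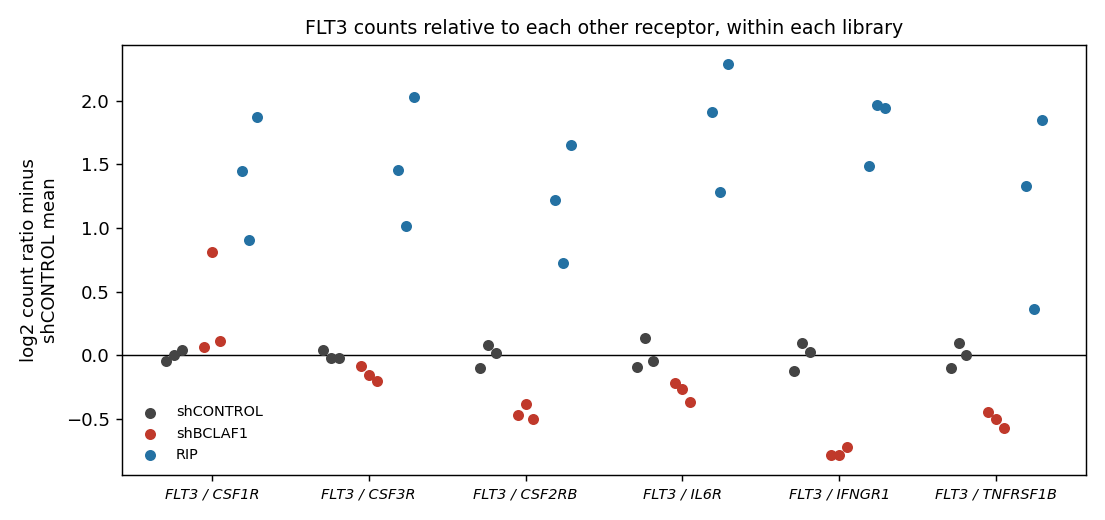
Log2 ratio of FLT3 counts to those of each other receptor within a library, minus the shCONTROL mean of that ratio (vertical axis). Points are libraries, coloured by group. RIP libraries lie above the controls in all 6 ratios, least clearly for TNFRSF1B, where replicate 2 is close to them.

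The genes whose levels over the 9 libraries were most like FLT3's were TCF12, RPL4P4, TTC17, NFX1 and CCDC77. Pearson's r of log2(CPM + 1) with FLT3 was 0.997 for TCF12, a transcription factor of the E protein class, and 0.996 for TTC17, NFX1 and CCDC77, over 11855 genes compared. RPL4P4 (r 0.997) is a pseudogene that can share reads with RPL4. Their RIP log2 fold changes were 0.72, 1.84, 0.81, 1.09 and 1.40, and those after knock-down were -0.12, -0.43, -0.15, -0.18 and -0.26. These values follow from the 3 groups and are a description, not a test. Among the receptors, r with FLT3 was negative throughout, from -0.97 for IL6R to -0.31 for CSF1R.

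Counts in the gene lists around the receptors stand beside shares over all genes tested of 15.5% higher and 16.9% lower after knock-down, and 24.6% and 24.7% in the RIP. Several list counts moved when 1 library was left out or all 9 were fitted together, and those values stand with each list.

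Ligands of the receptors were mostly at 0 in these cells. Of 11 ligand genes, 7 were at 0 in every library (CSF2, CSF3, IFNG, IL3, IL34, IL6 and KITLG). FLT3LG, the ligand of FLT3, held 23, 0 and 26 counts in shCONTROL, 28, 32 and 32 in shBCLAF1 and 0, 21 and 15 in the RIP, too few and too uneven for a comparison. CSF1, the ligand of CSF1R, held 115, 160 and 109 counts in shCONTROL and 0 in shBCLAF1 replicates 1, 2 and 3, which makes it at least 45.9-fold lower against a floor of 3 counts per library. LTA, a ligand of TNFRSF1B, held 23, 24 and 22 counts and then 0, at least 8.22-fold lower, and is named after its values were seen. Both were called lower (adjusted p 0.000717 and 0.00254), or 1 of them when all 9 libraries were fitted together, but a 0 here may be a failed estimate, since other genes in common use were also listed at 0. The median over the 4 ligands tested was -1.82, and -1.49 with those 2 genes set at their bounds. TNF, also a ligand of TNFRSF1B, measured 94.4, 105 and 84.3 CPM in shCONTROL and 104, 98.2 and 91.1 in shBCLAF1. Its groups overlapped, with a log2 fold change of 0.05 (adjusted p 0.721). In the RIP TNF (0.79, adjusted p 0.0130) and CSF1 (1.07, adjusted p 0.0277) were higher. TNF lost this call without shCONTROL replicate 3 (adjusted p 0.0561), and CSF1 without shCONTROL replicate 1 or 3 or RIP replicate 2.

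Of 20 other cytokine receptors tested after knock-down, 7 rose, 3 fell and 10 did not pass, with a median log2 fold change of 0.09. IL17RA, the common interleukin-17 receptor chain, rose by 0.66, IFNAR2, of the type I interferon receptor, by 0.52 and IL4R by 0.52 on the log2 scale. IL21R fell by 0.97 and IL2RG, the common gamma chain, by 1.10. IL2RB, the beta chain of the interleukin-2 receptor, held 275, 278 and 305 counts in shCONTROL and 0 in each shBCLAF1 library, at least 102-fold lower in the deposited values. The adjusted p of these 6 genes ran from 0.000187 to 0.00268. When all 9 libraries were fitted together 3 rose in place of 7, and IL17RA, IFNAR2 and IL4R lost their calls (adjusted p 0.167, 0.0888 and 0.0739). In the RIP 3 of the 20 were higher and 7 lower, with a median of -0.23, but the 7 became 3, 4 and 3 without shCONTROL replicate 1, 2 and 3. TNFRSF1A, the other tumour necrosis factor receptor (-1.29), IL10RB (-1.23) and IFNGR2 (-0.70) were lower, and IL10RA (1.21), IL4R (0.70) and IL2RG (0.67) were higher. IL4R lost its RIP call without any shCONTROL replicate or without RIP replicate 1 (adjusted p 0.0596 to 0.0801).

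Of the partners of IFNGR1 looked at, JAK2 rose after knock-down, and IFNGR2 and JAK1 did not pass the test. IFNGR2, its second chain, measured 65.4, 68.4 and 61.6 CPM in shCONTROL and 68.6, 69.6 and 62.7 in shBCLAF1, overlapping groups with a log2 fold change of 0.05 (adjusted p 0.638). JAK2, the kinase bound to IFNGR2, measured 42.3, 42.8 and 41.3 CPM in shCONTROL and 68.8, 75.04 and 67.4 in shBCLAF1, a log2 fold change of 0.74 (adjusted p 0.000385). JAK1, the kinase bound to IFNGR1 itself, measured 73.7, 78.4 and 68.9 CPM in shCONTROL and 89.9, 86.7 and 77.2 in shBCLAF1. Its groups overlapped, with a log2 fold change of 0.20 (adjusted p 0.0934). IFNGR2 and JAK1 were chosen as partners after their values were seen.

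Of the 38 kinases and adaptors tested, 10 rose and 6 fell after knock-down (median 0.10). Beside JAK2, the rule named STAT2 (0.84) and PIK3CB, a PI3-kinase subunit (0.69), as higher. GRB2, the adaptor that links receptors to RAS (-0.53), SOS1, its exchange factor (-0.42), and PIK3CD, the leukocyte PI3-kinase (-0.25), were lower. Fitting all 9 libraries together left 5 higher and 3 lower, without SOS1 and PIK3CD (adjusted p 0.177 and 0.246). In the RIP 16 were higher and 6 lower (median 0.34), but 9 were higher without shCONTROL replicate 2, and 3 and 4 were lower without shCONTROL replicate 1 and 2. Among those with the smallest adjusted p, the higher were AKT2 (0.98), PIK3R1 (0.95) and STAT2 (0.81), and the lower NRAS (-1.20) and SHC1, an adaptor (-0.99).

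Of 23 inhibitors of receptor signalling tested after knock-down, 4 were higher, 6 lower and 13 did not pass, beside 15.5% higher and 16.9% lower over all genes (median log2 fold change -0.0033). SOCS3, a feedback inhibitor of the interleukin-6 and G-CSF receptors (1.18), PTPRJ, a receptor phosphatase (0.68), and SLA, an adaptor (0.33), rose. SOCS2 (-0.53), CBL, the ubiquitin ligase that brings FLT3 and KIT to degradation (-0.48), and SH2B3, an adaptor that restrains JAK2 (-0.45), fell. In the fit of all 9 libraries 3 fell in place of 6, without CBL (adjusted p 0.126). STAT5 target genes, a list that shares SOCS1, SOCS2, SOCS3 and CISH with the inhibitors, had 6 higher and 5 lower of 15 tested (median -0.05), and 5 and 3 in the fit of all 9 libraries, where CCND2 lost its call (adjusted p 0.0994). MYC (-0.88), PIM2, a survival kinase (-1.11), and CCND2 (-0.71) fell, and SOCS1 (0.80) and CCND3 (0.42) rose beside SOCS3. In the RIP 6 inhibitors were higher and 4 lower of 23, beside 24.6% and 24.7% over all genes. The 6 became 2 without shCONTROL replicate 1 or 3 and 3 under total counts, and without RIP replicate 2 the 4 lower became 7. Among those called were SOCS1 (0.91), USP18 (0.88), SOCS3 (0.77), SOCS4 (-0.78), SOCS2 (-0.58) and CISH (-0.46). Of the STAT5 targets 3 were higher and 7 lower in the RIP, including ID1 (0.71), CCND3 (-1.72) and PIM2 (-1.11), and 1 was higher without shCONTROL replicate 3. The RIP call of SOCS3 ended when shCONTROL replicate 1 or 3 was left out, at an adjusted p of 0.0567 or 0.0638. With shCONTROL and shBCLAF1 averaged as the reference, the RIP log2 fold change fell to 0.19 for SOCS3 (adjusted p 0.257) and 0.27 for ID1 (adjusted p 0.209). ID1 lost it without shCONTROL replicate 2 or 3 or any RIP replicate (adjusted p 0.0566 to 0.122).

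Proteins that cut receptors from the cell surface were tested for 4 genes. ADAM17 (0.28), the protease that sheds TNFRSF1B, IL6R and CSF1R, and ADAM10 (0.21) rose after knock-down, while RHBDF2 (-0.59) and RHBDF1 (-0.74), which bring ADAM17 to the surface, fell. The call of ADAM10 ended when shCONTROL replicate 1 or 3 or shBCLAF1 replicate 1 or 2 was left out (adjusted p 0.0964 to 0.130). In the fit of all 9 libraries neither ADAM17 (adjusted p 0.0695) nor ADAM10 (0.111) passed. In the RIP RHBDF1 (1.59), RHBDF2 (0.62) and ADAM17 (0.57) were higher. ADAM10 was lower there (-0.35), without a call when shCONTROL replicate 1 or 2 was left out (adjusted p 0.0534 and 0.0621). Among 8 adaptors of tumour necrosis factor receptors, TRAF1 (-1.44) and TRAF3 (-0.51) fell and 0 rose, the latter without a call when shCONTROL replicate 1, 2 or 3 or shBCLAF1 replicate 1 or 2 was left out (adjusted p 0.0801 to 0.158) or all 9 libraries were fitted together (0.115). In the RIP 6 of the 8 were higher and 2 lower, with TRAF3 at 1.12 and TRADD at -0.48. The 6 became 3 without shCONTROL replicate 1, 2 or 3, without RIP replicate 2 or 3 and under total counts. TRADD lost its call without any shCONTROL replicate or RIP replicate 1 (adjusted p 0.0530 to 0.111).

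Transcription factors known to act on these receptor genes were mostly lower after knock-down, with 4 lower and 1 higher of 7 tested (median -0.25). GATA2, a regulator of KIT, measured 134, 142 and 137 CPM in shCONTROL and 67.2, 66.2 and 72.8 in shBCLAF1, a log2 fold change of -0.997 (adjusted p 0.000164). MEIS1 (-0.86, adjusted p 0.000202) and HOXA9 (-0.43, adjusted p 0.00144), the homeobox partners that act on FLT3, also fell, as did MYB (-0.25, adjusted p 0.00625), named because it completes the count. SPI1, which encodes PU.1, the activator of CSF1R and CSF3R, measured 249, 240 and 257 CPM (239.9 in replicate 2) in shCONTROL. In shBCLAF1 it measured 315, 303 and 343, a log2 fold change of 0.37 (adjusted p 0.00418). SPI1 did not pass when all 9 libraries were fitted together (adjusted p 0.169), which left 3 lower (GATA2, MEIS1 and HOXA9) and 0 higher. In the RIP 3 of the 7 were higher (MYB 1.21, HOXA9 0.73 and CEBPA 0.43), or 5 without RIP replicate 2, and 0 lower, and the call of CEBPA ended when shCONTROL replicate 1, 2 or 3 was left out (adjusted p 0.0904, 0.106 and 0.0782).

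**Figure D4:**
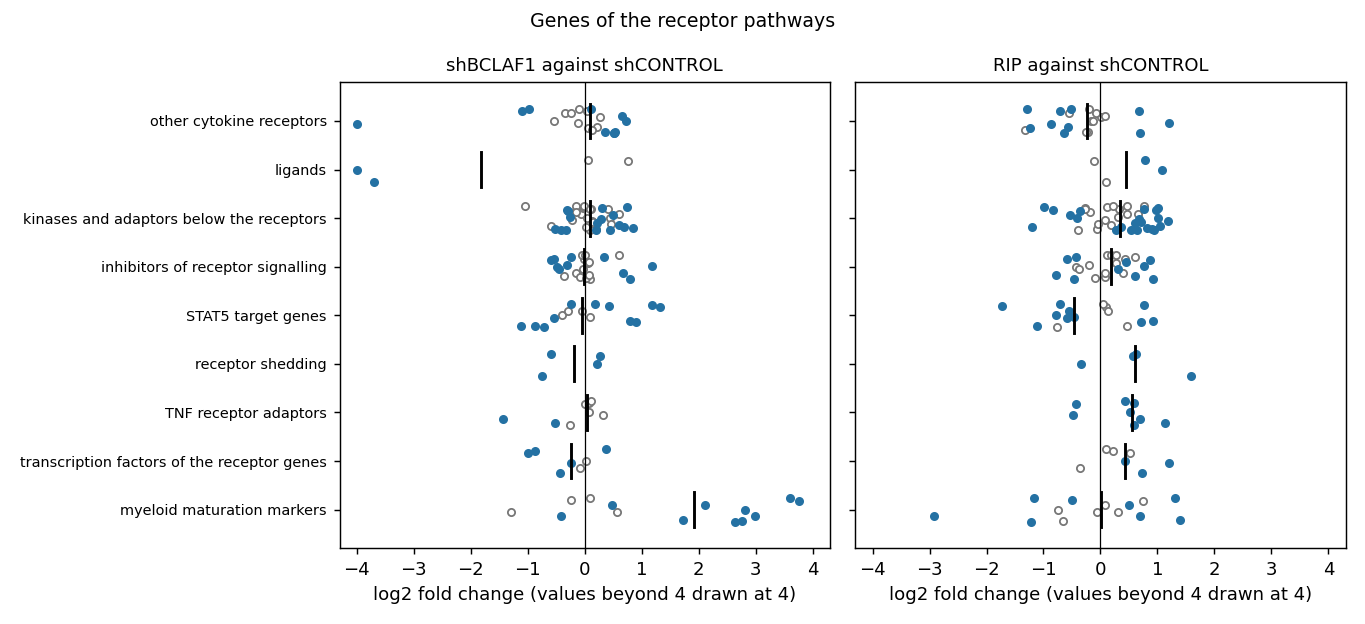
Log2 fold changes (horizontal axes) of the genes in 9 lists around the receptors, after knock-down (left) and in the RIP (right). Filled points passed an adjusted p of 0.05, and black lines are list medians. Maturation markers stand highest after knock-down, with a median of 1.92.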

How the data were processed

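RNA of MOLM-13 cells was measured in 9 libraries. The gene table that the authors deposited holds estimated counts, made from the reads without scaling to depth. The submitters' processing notes name STAR 2.7.11b, StringTie 2.2.3 and hg38 without roles, and the annotation and strand setting are not given in the sources used here. Values were whole numbers and were used as deposited. An entry that named no gene, with 2.18% to 3.75% of counts in 8 libraries, was left out.

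Each contrast was fitted on its own 6 libraries with edgeR 4.0.16 in R 4.3.3 (default filter on low counts, TMM scaling, prior count 2, quasi-likelihood F-test, Benjamini-Hochberg adjustment over all genes tested, threshold 0.05). CPM values use TMM factors of all 9 libraries. Each standard error is the log2 coefficient over the square root of F. DESeq2 1.42.0, other scalings, filters and designs, and fits without 1 library were alternatives.

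The receptors and gene lists were chosen with earlier results of these data known. All 10 receptors and BCLAF1 were named, with up to 3 called genes of smallest adjusted p per list, contrast and direction (mean of at least 50 counts), and the 5 genes closest to FLT3 by Pearson's r. Some genes that this rule names are not reported here. All sample columns were used. Gene positions and promoters are from RefSeq (GRCh38.p14). Floors cover counting error only.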

Additional observations from a re-analysis of the deposited data

How the results depend on the processing

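After knock-down 3 receptors rose, 2 to 4 in the alternatives other than the fit of all 9 libraries, which left 1 (IFNGR1). The number that fell, 1 (FLT3), was 0 under total counts, in the fit of all 9 libraries and with the replicate block, 2 with DESeq2 (FLT3 and CSF1R), and 0 to 1 when 1 library was left out. CSF3R turned to 0.00976 under total counts and to 0.0102 without shCONTROL replicate 2, the highest of values from -0.073 when 1 library was left out. In the RIP, with the minimum log2 fold change of 1, 0 receptors were enriched in all fits, and 1 was higher with no minimum. The 0 depleted became 2 under total counts (IL6R and IFNGR1), 1 with shCONTROL and shBCLAF1 averaged as the reference (IFNGR1), 4 with no minimum, and 0 to 1 when 1 library was left out. The cause was not tested. Total counts moved the median of all genes in the RIP from -0.05 to -0.16. Deviations from the group mean correlated at -0.02 to 0.11 for same-numbered libraries and at -0.10 to 0.04 for differently numbered ones. With 3 libraries per group, these values cannot decide whether replicate numbers pair the samples. With the replicate block FLT3 had an adjusted p of 0.0588 after knock-down, no other receptor's call changed, and not every library correlated best with its own number. The block lowered RIP list counts from 7 to 3 (other cytokine receptors, lower), 6 to 3 (inhibitors, higher), 4 to 2 (maturation markers, lower), 2 to 1 (TNF receptor adaptors, lower) and 1 to 0 (shedding, lower), and ligands lower after knock-down from 2 to 1. The 7 receptors with counts held 424 or more in every library.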

Other observations

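Alpha-globin RNA appeared in the RIP and in none of the RNA-seq libraries, a result chosen after its values were seen. HBA1 held 66, 35 and 77 counts in RIP replicates 1, 2 and 3 and 0 in the other 6 libraries, at least 25.3-fold higher than shCONTROL against the floor of 3 counts per library. HBA2, a near-identical copy that can share reads with it, held 993, 0 and 1660 counts in the RIP. HBB and ALAS2, also erythroid markers, were at 0 in all 9 libraries.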
